A study of Mus musculus with 59 samples.

Results

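The Mrpl40 allele was compared in the hippocampus of male mice over 29 of the 59 libraries of poly(A) RNA in a study that also sequenced cortex. The members are all hippocampus libraries, chosen by tissue and labelled genotype: 14 labelled Mrpl40 -/+ and 15 labelled Mrpl40 +/+, pooled over the labelled genotype of Slc25a1, which entered the model as a covariate. Of the 14, 7 were labelled Slc25a1 +/+ and 7 Slc25a1 -/+, and of the 15, 8 were Slc25a1 +/+ (wild type for both genes) and 7 Slc25a1 -/+. Each library came from its own animal, so that p-values measure the spread between 29 animals. The kit keeps the strand of the RNA (NEBNext Ultra II Directional). The sources used here give no age or strain of the mice and no kind of mutation for either gene. The comparison asks which transcripts differ between the Mrpl40 labels whatever the label of Slc25a1.

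Mrpl40 is part of the large subunit of the ribosome inside mitochondria. That ribosome translates the few proteins encoded by mitochondrial DNA, all of them subunits of the respiratory chain and the ATP synthase. All other proteins of the organelle, those of its ribosome included, are encoded in the nucleus. The nuclear genome also carries insertions of mitochondrial DNA, annotated as pseudogenes, some of which are letter for letter the same as the mitochondrial gene. Slc25a1, the mitochondrial citrate carrier, lies with Mrpl40 in the region that matches the human 22q11.2 deletion.

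The Mrpl40 count (ENSMUSG00000022706) did not separate the labels. Its level in CPM (counts scaled to a common library size) was 15.8 ± 1.21 (SD, n = 8) in wild type, 15.5 ± 0.79 (n = 7) in Slc25a1 -/+, 15.8 ± 1.11 (n = 7) in Mrpl40 -/+ and 16.1 ± 1.02 (n = 7) in the double heterozygotes. The log2 fold change (Mrpl40 -/+ minus Mrpl40 +/+, as for all fold changes here) was 0.028 ± 0.038 (SE) with an edgeR adjusted p of 0.776, so that the Mrpl40 labels could not be checked on these counts. Slc25a1 went against its label in 6 animals: it was low in wild-type animals 6 and 7 (11.3 and 12.3 CPM) and high in Slc25a1 -/+ animals 12 and 13 (24.5 and 21.5 CPM) and double heterozygous animals 29 and 30 (27.7 and 21.4 CPM). All genotypes below are as labelled.

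Library totals ranged from 22181973 to 30347791 counts in Mrpl40 -/+ and from 21467790 to 29895407 in Mrpl40 +/+. The tissue label held: Prox1, the transcription factor of dentate granule cells, lay between 141 and 309 CPM in hippocampus against 10.7 to 15.3 CPM in cortex, and the summed neocortical layer markers lay between 302 and 674 CPM against 939.9 to 1349.8 CPM. With both tissues scaled together, the CA2 and dentate gyrus lists separated them too, but 2 subfield lists did not. Summed CA3 markers lay at 1627 to 3538 CPM in hippocampus against 1566 to 1967 CPM in cortex. Those of CA1 and subiculum lay at 565 to 1527 CPM against 894 to 1096 CPM. A few libraries stood apart. Animal 12 had high cerebellar granule cell markers (a sum of 764 CPM, where the other 28 libraries reached at most 348), animals 22 and 30 had high choroid plexus markers (103 and 108 CPM, where the Mrpl40 +/+ libraries reached at most 52.7), and wild-type animal 8 had few dentate gyrus markers (1076 CPM, median of Mrpl40 +/+ 1816). Results are given also without these animals and without the 6 animals above, both chosen after seeing the data. Animals 12 and 30 are in both sets, so that these fits are not separate checks. In such pieces of tissue, fewer cells of a type and less RNA per cell cannot be told apart.

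Of 20162 genes tested, 18 passed the test (adjusted p under 0.05), which is 0.0893% of them: 10 rose (0.0496%) and 8 fell (0.0397%). Of the 10 that rose, 8 were nuclear copies of mitochondrial genes, and the others were Copg2, a subunit of the coatomer that coats vesicles of the Golgi, and the processed pseudogene Gm12988. Those that fell were the protein-coding genes Hipk2, Nwd1, Col9a3, Soga1 and Igf2r and the non-coding or uncertain genes Gm43481, Gm16364 and C230057M02Rik. The changes were small, from a log2 fold change of -0.74 to 0.69, and no gene of the 20162 had libraries of the labels that did not overlap (0%). Over all genes tested, 45.4% lay higher and the median log2 fold change was -0.0099. At an unadjusted p under 0.05 stood 2907 genes (14.4%), 1491 higher (7.40%) and 1416 lower (7.02%), and the counts of list members at that p below are to be read against these shares. DESeq2, used beside edgeR, called 330 of the 4136 genes that its own filter left with an adjusted p. Without that filter it called 137 of 20162. Its calls of list members below are to be read against these counts.

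The copies were identified by their sequence. In the GENCODE vM21 transcripts (GRCm38, a build older than the one named for the counts), 11 nuclear genes match a mitochondrial gene over at least 200 bases with at least 95% identity, and all 11 were tested. Of these, 7 stand side by side on the minus strand of chromosome 1, 3 stand together on chromosome 2, where Gm13340 and Gm13341 overlap Myo3a on the opposite strand, and 1, Gm4076, lies on chromosome 13. The 37 genes of the mitochondrial genome itself have rows in the count table, and all of them hold 0 counts in every library. The copy with the smallest p, Gm10222, is shown whole (294 bases, chr1:24612407-24612700, minus strand) because it is identical, letter for letter, to the first 294 bases of mt-Nd4l, a subunit gene of complex I, so that a read from either would be the same:
Gm10222 and mt-Nd4l: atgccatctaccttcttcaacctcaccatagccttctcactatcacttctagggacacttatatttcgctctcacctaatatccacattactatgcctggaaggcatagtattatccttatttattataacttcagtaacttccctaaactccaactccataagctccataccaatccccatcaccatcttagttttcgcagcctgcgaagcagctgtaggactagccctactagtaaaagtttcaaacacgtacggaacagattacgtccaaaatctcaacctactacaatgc
The copies on the other chromosomes differ from the mitochondrial gene at some positions, 37 of 1545 bases in Gm13340. Only a read over such a position could be told apart, and whether the reads counted there did so was not tested. Gm13340 lay at a mean of 223 CPM in Mrpl40 +/+, its neighbours Gm13341 and Gm13339 at 3.17 and 5.38 CPM. The stretches of 120 bases with the most differences are shown for Gm13340 (chr2:22588355-22588474, minus strand) beside mt-Co1 (chrM:6501-6620, plus strand), and for Gm4076 (chr13:85127209-85127328, minus strand) beside mt-Nd5 (chrM:12633-12752, plus strand), with the differing bases in capitals:
mt-Co1: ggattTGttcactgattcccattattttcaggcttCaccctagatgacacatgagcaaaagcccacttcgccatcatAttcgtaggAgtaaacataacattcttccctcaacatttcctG
Gm13340: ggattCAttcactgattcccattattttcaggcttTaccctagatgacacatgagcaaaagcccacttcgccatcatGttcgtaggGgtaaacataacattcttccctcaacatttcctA
mt-Nd5: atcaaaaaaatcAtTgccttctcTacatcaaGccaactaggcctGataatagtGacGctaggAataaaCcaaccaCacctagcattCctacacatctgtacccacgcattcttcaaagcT
Gm4076: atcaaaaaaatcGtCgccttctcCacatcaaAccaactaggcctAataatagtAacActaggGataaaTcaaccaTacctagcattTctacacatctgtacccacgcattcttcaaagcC
The first pair differs at 6 and the second at 12 of these positions. Over the whole match, Gm13340 shares 97.6% of 1545 bases with mt-Co1 and Gm4076 shares 95.2% of 954 bases with mt-Nd5.

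All 11 copies lay higher in Mrpl40 -/+, with log2 fold changes from 0.18 to 0.42 and a median of 0.33, 8 of them past the test. The copies stand in few places and share their source sequence, so that they are not independent of one another. Gm10222 ranged from 192 to 260 CPM (median 219) in the 15 Mrpl40 +/+ libraries and from 243 to 334 CPM (median 279.6) in the 14 Mrpl40 -/+ libraries. Of the latter, 13 lay above every Mrpl40 +/+ library, and only double heterozygous animal 31 lay within their range. The log2 fold change was 0.37 ± 0.046 (SE) with an edgeR adjusted p of 6.29e-05. Gm10221, which had been listed as a copy but has no match of that length and identity, lay at 0.020 ± 0.033 (adjusted p 0.821).

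Gm28439, whose 876 bases all match mt-Nd4, another gene of complex I, ranged from 865 to 1138 CPM (median 1012) in Mrpl40 +/+ and from 1099 to 1459 CPM (median 1282) in Mrpl40 -/+. Again 13 of the 14 Mrpl40 -/+ libraries lay above all 15 others. It rose by 0.35 ± 0.045 on the log2 scale (edgeR adjusted p 8.59e-05). Gm28438, which matches mt-Nd3 of complex I in all but 1 of 345 bases, lay at 104.0 ± 11.1 CPM (SD, n = 15) in Mrpl40 +/+ and at 128 ± 11.8 CPM (SD, n = 14) in Mrpl40 -/+, and rose by 0.30 ± 0.051 (adjusted p 0.00403). Its groups overlapped more, with 4 of the 14 libraries above all Mrpl40 +/+ libraries.

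Copies of the genes for cytochrome c oxidase and the ATP synthase behaved alike. Gm10925, identical over 678 bases to mt-Atp6, ranged from 2120.0 to 3072 CPM (median 2602) in Mrpl40 +/+ and from 2626 to 3785 CPM (median 3175) in Mrpl40 -/+, with 10 of 14 libraries above all of the other label, and rose by 0.31 ± 0.052 (edgeR adjusted p 0.00328). Gm28437, identical over 783 bases to mt-Co3, rose by 0.30 ± 0.048 (adjusted p 0.00216) and lay at 1412 ± 150.0 CPM (SD, n = 15) in Mrpl40 +/+ and at 1742 ± 132 CPM (SD, n = 14) in Mrpl40 -/+. The highest Mrpl40 +/+ library, Slc25a1 -/+ animal 16 at 1776 CPM, left 3 Mrpl40 -/+ libraries above all of that label. Gm28661, identical over 681 bases to mt-Co2, lay at 1725 ± 179 and 2003 ± 169 CPM, a log2 difference of 0.22 ± 0.051 that did not pass (adjusted p 0.0657). Gm29216, which matches mt-Co1 in all but 1 of 483 bases, did not pass either, at 0.18 ± 0.059 (adjusted p 0.184).

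The copies that differ from the mitochondrial sequence at many positions lay higher as well, 3 of 4 past the test. Gm13340 ranged from 191 to 266 CPM (median 226) in Mrpl40 +/+ and from 244 to 337 CPM (median 278) in Mrpl40 -/+. Of the 14 Mrpl40 -/+ libraries, 10 lay above all others, and the log2 fold change was 0.33 ± 0.051 (edgeR adjusted p 0.00134). Gm4076 was rare, at 1.85 to 2.60 CPM (median 2.17) against 2.12 to 3.6 CPM (median 2.98), and 11 of 14 libraries lay above all Mrpl40 +/+ libraries. It rose by 0.42 ± 0.072 (adjusted p 0.00512). Gm13341, at 95.9% identity to mt-Co2, rose by 0.39 ± 0.082 (adjusted p 0.0417) between means of 3.17 ± 0.50 CPM (SD, n = 15) and 4.16 ± 0.62 CPM (SD, n = 14). Gm13339, at 96.7% identity to mt-Nd2, lay at 5.38 ± 0.81 and 6.88 ± 1.2 CPM, 0.35 ± 0.082 on the log2 scale, and did not pass (adjusted p 0.0657).

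The summed level of the 11 copies, which weights the abundant ones, ranged from 6893 to 9771 CPM (median 8313) in Mrpl40 +/+ and from 8510.4 to 11567 CPM (median 9787) in Mrpl40 -/+. Of the 14 Mrpl40 -/+ libraries, 7 lay above all 15 others, and the lowest, animal 31, lay below 5 of them. By genotype the means were 8152 ± 602 CPM (SD, n = 8) in wild type, 8241 ± 1025 CPM (n = 7) in Slc25a1 -/+, 10059 ± 669 CPM (n = 7) in Mrpl40 -/+ and 9864 ± 1055 CPM (n = 7) in the double heterozygotes. The highest Mrpl40 +/+ library was Slc25a1 -/+ animal 16. Counts per gene do not tell whether the reads behind these values came from mitochondrial or nuclear transcripts.

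**Figure D1:**
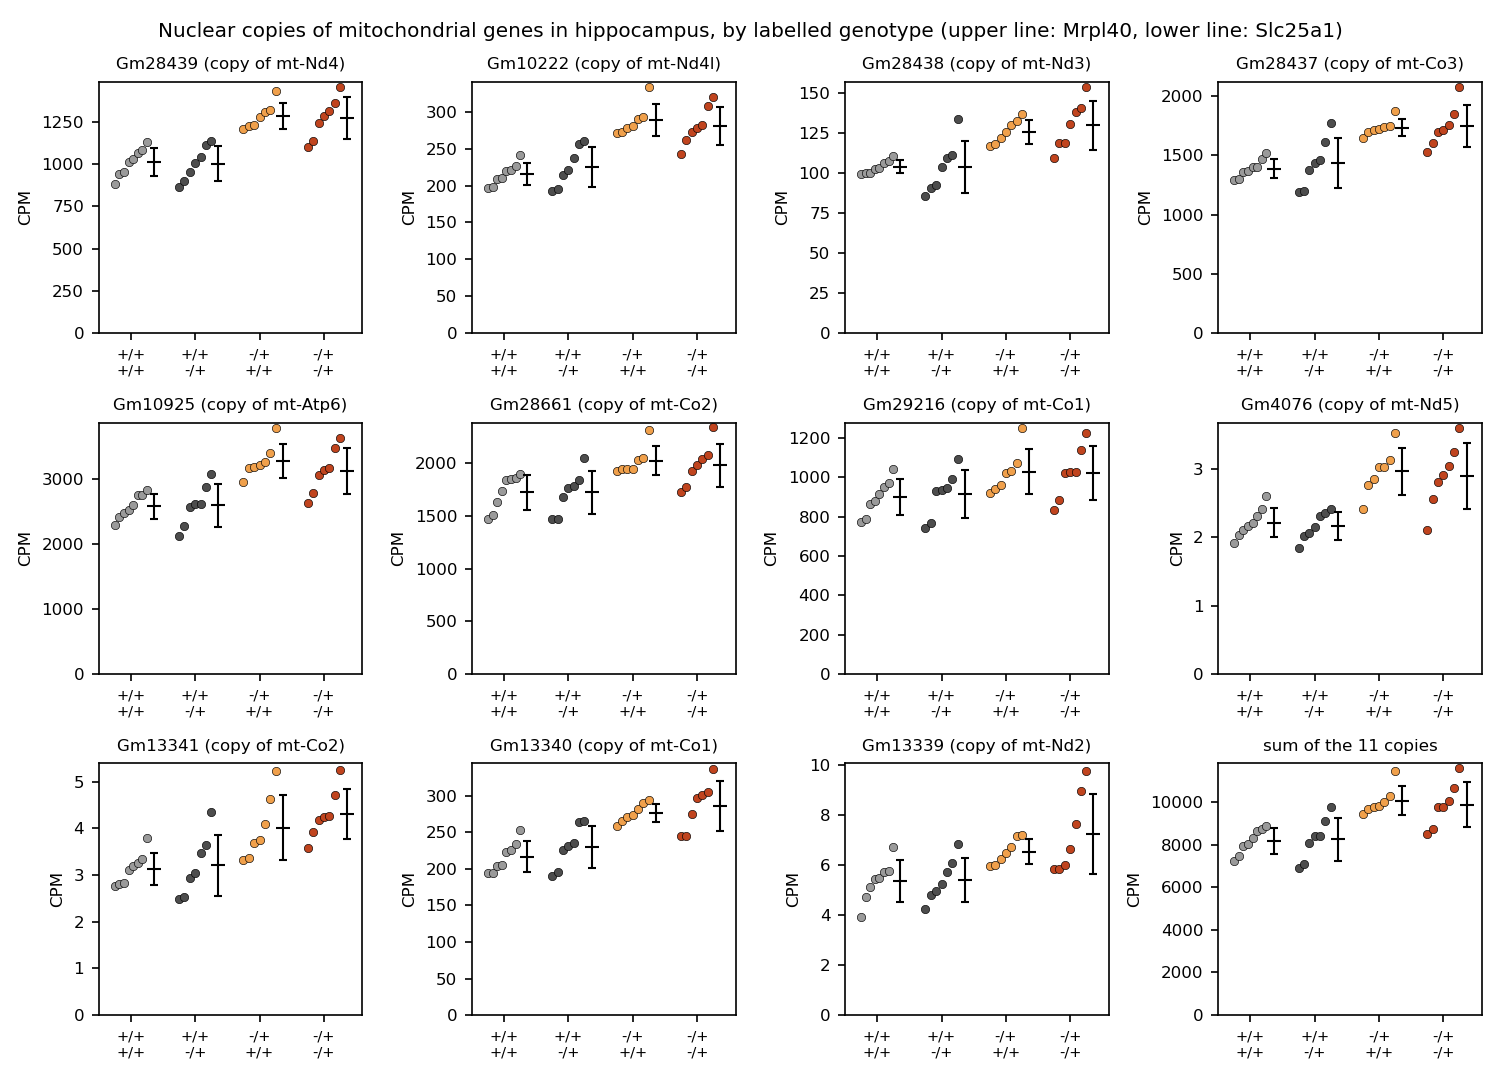
Level in CPM of each nuclear copy of a mitochondrial gene and of their sum (last panel) in the 29 hippocampus libraries, by labelled genotype (upper line Mrpl40, lower line Slc25a1). Points are libraries in order of size, and bars to the right of them give the mean and SD of 7 or 8 libraries. In Gm10222 and Gm28439, 13 of the 14 Mrpl40 -/+ libraries (orange and red) lie above every Mrpl40 +/+ library (grey).

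Fewer genes passed without the animals in doubt. Without the 6 animals whose Slc25a1 level went against the label, 3 genes were called in place of 18, and 2 of the 8 copies passed, Gm10222 at 0.35 ± 0.056 (adjusted p 0.0125) and Gm28439 at 0.33 ± 0.053 (adjusted p 0.0125). The other 6 copies lay at 0.26 to 0.44 there, beside 0.30 to 0.42 with all animals, with adjusted p from 0.073 to 0.215. The other gene called was Gm43481. Without the 3 animals with cerebellar or choroid plexus markers, 9 genes were called, all 8 copies and Gm43481. Without wild-type animal 8, 15 were called, among them 7 of the 8 copies.

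Hipk2, a nuclear protein kinase that acts on transcription factors and in the response to DNA damage, had the largest fall among the called protein-coding genes. It ranged from 17.1 to 30.3 CPM (median 22.4) in Mrpl40 +/+ and from 13.7 to 23.5 CPM (median 17.0) in Mrpl40 -/+. Of the 14 Mrpl40 -/+ libraries, 7 lay below all Mrpl40 +/+ libraries, and double heterozygous animal 26, at 23.5 CPM, lay above the median of the other label. The log2 fold change was -0.42 ± 0.074 (SE) with an edgeR adjusted p of 0.00716. It was -0.47 ± 0.087 without the 6 animals and -0.41 ± 0.082 without the 3, with adjusted p of 0.0643 and 0.0653, which do not pass.

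Nwd1, which encodes a protein with a nucleotide-binding domain and WD repeats, ranged from 92.3 to 135 CPM (median 109.5) in Mrpl40 +/+ and from 81.3 to 109.7 CPM (median 96.2) in Mrpl40 -/+. Only 3 Mrpl40 -/+ libraries lay below all others, and the spread was wider in Mrpl40 +/+ (SD 12.8 against 7.5 CPM). It fell by 0.23 ± 0.042 on the log2 scale (edgeR adjusted p 0.0129). Col9a3, a chain of collagen IX, fell by 0.24 ± 0.046 (adjusted p 0.0191), with means of 14.9 ± 1.53 CPM (SD, n = 15) in Mrpl40 +/+ and 12.6 ± 1.03 CPM (SD, n = 14) in Mrpl40 -/+. In Col9a3, 7 of the 14 libraries lay below all Mrpl40 +/+ libraries.

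Igf2r, the receptor that binds IGF2 and sorts lysosomal enzymes carrying mannose 6-phosphate, ranged from 45.9 to 53.3 CPM (median 49.9) in Mrpl40 +/+ and from 40.1 to 53.3 CPM (median 44.3) in Mrpl40 -/+. Of the 14 libraries, 11 lay below all Mrpl40 +/+ libraries, and 1, at 53.3 CPM, lay beside the highest of them. It fell by 0.16 ± 0.034 (edgeR adjusted p 0.0417). The antisense transcript Airn overlaps Igf2r, and the libraries keep the strand, but the sources used here do not give the strand setting of the counting. Soga1 fell by 0.25 ± 0.052 (adjusted p 0.0417), with means of 40.6 ± 4.94 CPM (SD, n = 15) in Mrpl40 +/+ and 34.1 ± 3.02 CPM (SD, n = 14) in Mrpl40 -/+.

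Copg2 was the single protein-coding gene that rose. It ranged from 76.3 to 95.8 CPM (median 82.3) in Mrpl40 +/+ and from 84.1 to 111 CPM (median 93.2) in Mrpl40 -/+, and 5 of 14 libraries lay above all others. The log2 fold change was 0.18 ± 0.037 (edgeR adjusted p 0.0417). Copg2 overlaps Mest on the other strand, as Hipk2 does Tbxas1 and Col9a3 does Tcfl5. None of these 6 protein-coding genes passed without the 6 animals in doubt or without the 3 animals with foreign markers. All kept their direction under both. In 29 fits that each left out 1 library, Hipk2, Nwd1 and Col9a3 passed every time. Soga1 passed in 14 of the 29, and Igf2r and Copg2 in 11 each.

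**Figure D2:**
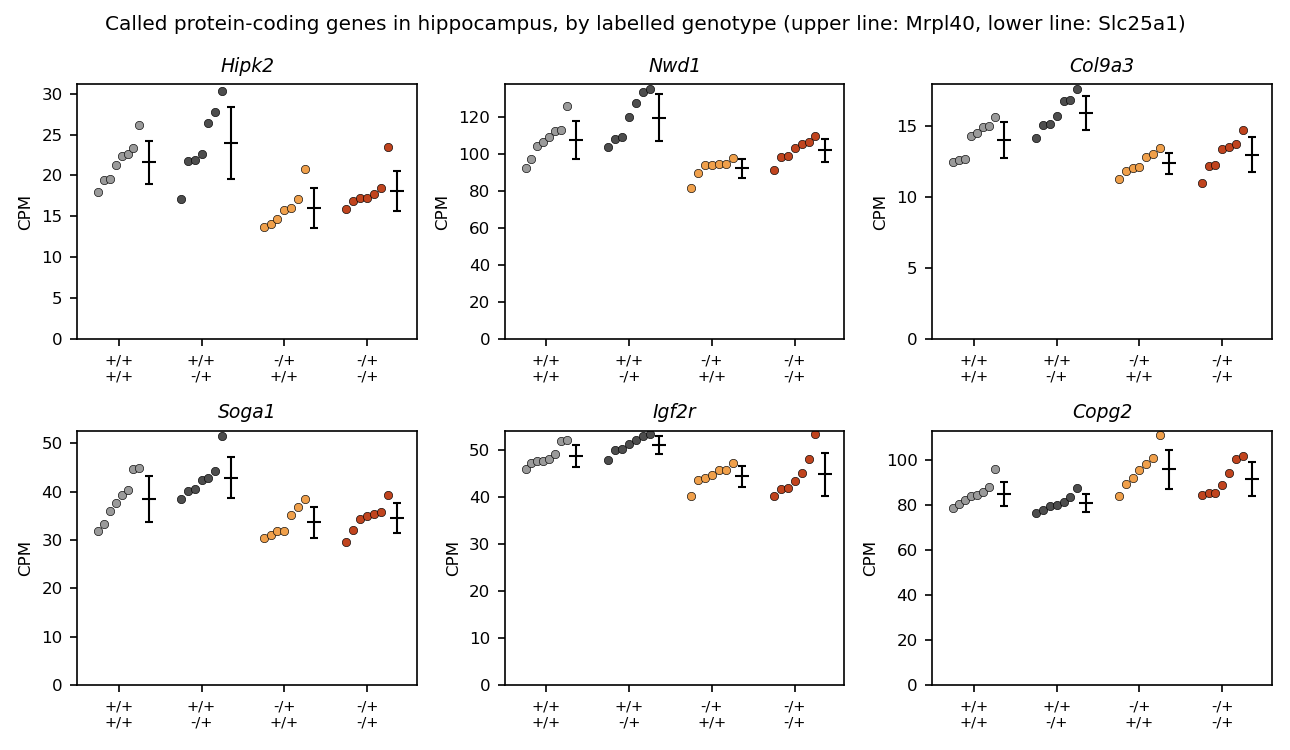
Level in CPM of the 6 called protein-coding genes in the 29 hippocampus libraries, by labelled genotype (upper line Mrpl40, lower line Slc25a1), with points for libraries and bars for the mean and SD of 7 or 8 libraries. Hipk2, Nwd1, Col9a3, Soga1 and Igf2r are lower and Copg2 is higher in both Mrpl40 -/+ genotypes, and in each panel some libraries of the 2 Mrpl40 labels overlap.

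The remaining calls were of non-coding genes, a pseudogene and a gene of uncertain status. Gm43481, a transcript of uncertain status that overlaps Gtf2i on the same strand (chr5:134267065-134270736), fell by 0.39 ± 0.064 (edgeR adjusted p 0.00216), with means of 5.78 ± 0.60 CPM (SD, n = 15) in Mrpl40 +/+ and 4.42 ± 0.67 CPM (SD, n = 14) in Mrpl40 -/+, and with 11 of 14 libraries below all Mrpl40 +/+ libraries. Its reads could not be told from those of Gtf2i by position. Gm16364, antisense to the kinase gene Fyn, fell by 0.74 ± 0.14 (adjusted p 0.0174) at about 1 CPM, from 1.07 ± 0.24 to 0.65 ± 0.23 CPM. The non-coding C230057M02Rik, which overlaps Gm20388 on the other strand, fell by 0.29 ± 0.059 (adjusted p 0.0321), from 26.3 ± 3.33 to 21.5 ± 2.85 CPM. Gm12988 rose by 0.69 ± 0.14 (adjusted p 0.0338), from 0.45 ± 0.11 to 0.72 ± 0.16 CPM.

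The main effect averages the Mrpl40 effect over both labels of Slc25a1, so that each was also fitted alone. Among mice labelled Slc25a1 +/+ 1 gene passed (0.00496% of 20162), Gm10222 at 0.42 ± 0.064 (edgeR adjusted p 0.00421). Among mice labelled Slc25a1 -/+ edgeR called 0 genes (0%), with 1822 at an unadjusted p under 0.05. There Gm10222 stood at 0.32 ± 0.066 (adjusted p 0.201). DESeq2 called genes under both labels, 14 in Slc25a1 -/+ and about as many in Slc25a1 +/+. The interaction, which tests whether the Mrpl40 effect differs with the Slc25a1 label, had 0 calls by edgeR (0%) with 683 at an unadjusted p under 0.05, and 0 by DESeq2.

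All 18 called genes had the same sign under both labels of Slc25a1. The smallest unadjusted interaction p among them was 0.205, that of Gm16364, which stood at -0.93 ± 0.20 in Slc25a1 +/+ and -0.57 ± 0.19 in Slc25a1 -/+. Gm28439 was at 0.35 ± 0.064 and 0.34 ± 0.066, Hipk2 at -0.44 ± 0.11 and -0.41 ± 0.11, and Copg2 at 0.17 ± 0.052 and 0.18 ± 0.053. Col9a3 was at -0.18 ± 0.063 and -0.29 ± 0.065, and Soga1 at -0.19 ± 0.073 and -0.31 ± 0.074. The same sign is in part a result of the choice, since the genes were called on the average of both effects.

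**Figure D3:**
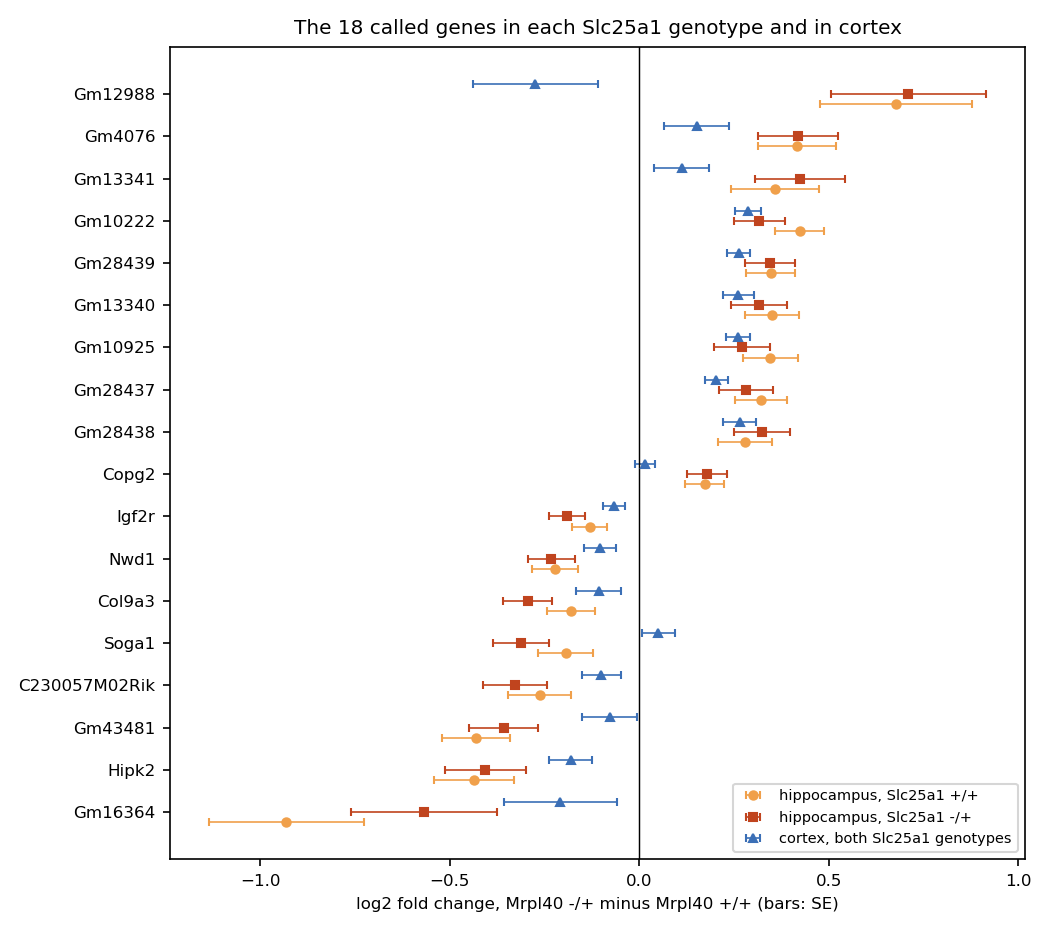
Log2 fold change (Mrpl40 -/+ minus Mrpl40 +/+, bars give the SE) of the 18 called genes in hippocampus of mice labelled Slc25a1 +/+ (circles) and Slc25a1 -/+ (squares) and in cortex over both labels (triangles). All 18 have the same sign in both hippocampus fits, and in cortex Gm12988 and Soga1 lie on the other side of 0.

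In cortex of the same animals, 14 of 20394 genes passed the same test (0.0686%), 6 of which are among the 18 called in hippocampus: Gm10222, Gm28439, Gm13340, Gm10925, Gm28437 and Gm28438. In cortex they stood at 0.29 ± 0.034, 0.26 ± 0.031, 0.26 ± 0.042, 0.26 ± 0.031, 0.20 ± 0.031 and 0.26 ± 0.045. All 11 copies lay higher in Mrpl40 -/+ cortex as well. Gm28661 and Gm29216 passed in cortex only (edgeR adjusted p 0.000435 and 0.0242). The copies Gm4076, Gm13341 and Gm13339, which differ from the mitochondrial sequence, did not pass in cortex (adjusted p 0.517, 0.571 and 0.220). The tissues come from the same mice, so that the cortex values are not an independent repeat. Of the 18 genes, 16 had the same sign in cortex, and the exceptions were Gm12988 (-0.27 ± 0.17) and Soga1 (0.050 ± 0.044). Hipk2 stood at -0.18 ± 0.056 in cortex (edgeR adjusted p 0.187), Igf2r at -0.066 ± 0.029 and Copg2 at 0.016 ± 0.026.

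The difference between the tissues, tested with the animal as a block, was called for none of the 18 genes by edgeR. Their smallest adjusted p was that of Gm12988 (0.99 ± 0.22, adjusted p 0.0727), followed by Soga1 (-0.28 ± 0.063, 0.0831) and Copg2 (0.16 ± 0.037, 0.111). Over all genes 13 of 21354 passed this test (0.0609%), all with a higher Mrpl40 effect in hippocampus than in cortex. Among them were Pcsk1n, an inhibitor of prohormone convertase (0.53 ± 0.084, adjusted p 0.0176), and the neuropeptide gene Cck (0.42 ± 0.083, adjusted p 0.0409). Pcsk1n did not pass within either tissue, at 0.16 ± 0.12 in hippocampus and -0.34 ± 0.093 in cortex, and Cck stood at 0.23 ± 0.074 and -0.19 ± 0.074. These 13 calls fell to 0 without the 6 animals in doubt and to 0 without the 3 animals with foreign markers, and to 5 without animal 8.

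The nuclear genes of the mitochondrial machinery lay close to 0 when taken over both labels of Slc25a1. Over 9 lists (both subunits of the mitochondrial ribosome, mitochondrial transcription and translation, mitochondrial tRNA synthetases, complexes I to IV and the ATP synthase), 118 of 210 members lay higher and 92 lower, with list medians between -0.012 and 0.028 beside -0.0099 over all genes. None passed by edgeR or limma-voom, and 12 higher and 7 lower members had an unadjusted p under 0.05 (9.05%, below the 14.4% of all genes). DESeq2 called 1, Atp5d, and none without its own filter. Of the 50 proteins of the large mitoribosomal subunit, to which Mrpl40 belongs, 35 lay higher (median 0.016, 0.0056 to 0.022 in other settings), led by Mrpl35 at 0.10 ± 0.035 (edgeR adjusted p 0.194) and Mrpl48 at 0.074 ± 0.033. Of the 33 of the small subunit 16 lay higher, with a median (-0.00030) whose sign turned in 7 of 13 other settings. Of the 36 nuclear subunits of complex I 22 lay higher (median 0.0092, a sign that turned in 2 settings), with Ndufv1 at 0.068 ± 0.027 and Ndufs5 at -0.069 ± 0.033. Some of these medians differed in sign by label. That of complex I was -0.020 (14 of 36 higher) in Slc25a1 +/+ and 0.047 (30 of 36) in Slc25a1 -/+. In the same order, complex IV was at -0.034 and 0.029, and the small subunit at -0.017 (14 of 33) and 0.024 (23 of 33). These differences between list medians were not tested.

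In energy metabolism outside these lists, 20 of 26 gene IDs of glycolysis and pyruvate entry lay higher (median 0.069). They stand for 25 genes, since 2 IDs carry the symbol Aldoa, the second at about 2.12 CPM. At an unadjusted p under 0.05 stood 10 higher (38.5%, 7.40% of all genes) and 3 lower, and none passed the edgeR test. Eno2, the neuronal enolase, was at 0.12 ± 0.032 (adjusted p 0.13), while Mpc1, a subunit of the mitochondrial pyruvate carrier, was at -0.12 ± 0.031 (adjusted p 0.105) and the astrocytic aldolase Aldoc at -0.17 ± 0.055. DESeq2 called 2 of them higher, Eno2 and Dlat, and only 1 without its own filter. Cytosolic ribosomal protein genes leaned the other way: 68 of 79 lay lower (median -0.045), 14 of them at an unadjusted p under 0.05 (17.7% of the list, 7.02% of all genes), with Rpl36 at -0.19 ± 0.049 and Rpl23a at -0.17 ± 0.046 (both adjusted p 0.105). None of these passed by edgeR, by limma-voom or by DESeq2, which without its own filter called 1 lower. Of 31 tested genes in the region that matches human 22q11.2, 21 lay higher (median 0.024), and none passed by any of these tools.

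**Figure D4:**
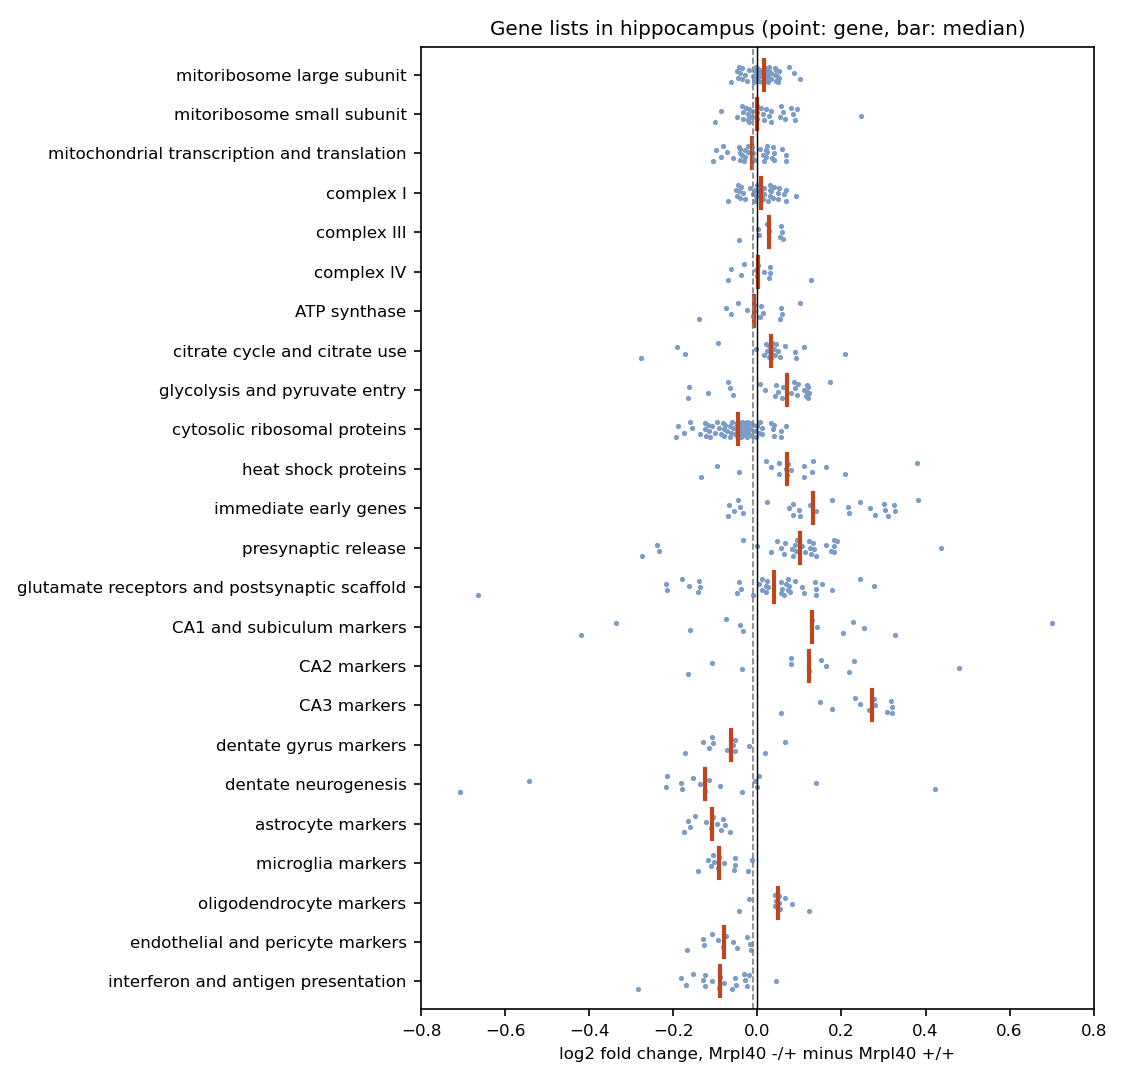
Log2 fold change (Mrpl40 -/+ minus Mrpl40 +/+) of every tested member of 24 gene lists in hippocampus (points), with the list median (red bar) and the median of all genes tested (dashed line at -0.0099). The mitochondrial lists lie close to 0, all 12 CA3 markers lie above 0, and all 12 astrocyte and 13 microglia markers lie below it, though no member of these 3 lists or of the mitochondrial ones passed the edgeR test.

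Markers of the hippocampal subfields differed in direction between fields. All 12 markers of CA3, the field of the mossy fibre targets, lay higher (median 0.27), as did 8 of 11 of CA2 (median 0.12) and 7 of 13 of CA1 and subiculum (median 0.13), while 11 of 13 dentate gyrus markers (median -0.063) and 14 of 17 genes of dentate neurogenesis (median -0.12) lay lower. None passed by edgeR or limma-voom. DESeq2 called 1, Cpne4, and none without its own filter. Chgb, a granin enriched in CA3, ranged from 396 to 1094 CPM (median 715) in Mrpl40 +/+ and from 598 to 1197 CPM (median 862) in Mrpl40 -/+. These ranges overlapped from 598 to 1094 CPM, and Chgb was at 0.32 ± 0.12 (edgeR adjusted p 0.217). Cpne4, a copine, was at 0.28 ± 0.10 (adjusted p 0.224), and the dentate markers Glis3 and C1ql2 at -0.17 ± 0.10 and -0.13 ± 0.10.

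The subfield markers of the labels overlapped. The mean log2 CPM of the CA3 markers was 5.93 ± 0.28 (SD, n = 15) in Mrpl40 +/+ and 6.15 ± 0.34 (SD, n = 14) in Mrpl40 -/+, and that of the dentate markers 6.60 ± 0.24 and 6.53 ± 0.28. The summed CA3 markers ranged from 1670.1 to 3093 CPM against 2019 to 3566 CPM, the highest in animal 22, which also had the fewest dentate markers (1067.5 CPM). The median of the CA3 markers stayed between 0.22 and 0.33 in the other settings, whereas that of CA1 turned to -0.092 without the 6 animals in doubt and to -0.0066 without animal 21 alone. The CA2 median was 0.052 without animal 22, and the dentate median ranged from -0.11 without animal 8 to -0.032 without animal 22. The CA1 and CA3 lists did not separate hippocampus from cortex. The part of the subfield markers in the other results was not tested.

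Astrocyte, microglia and vascular markers lay lower. All 12 astrocyte markers were below 0 (median -0.11), 8 of them at an unadjusted p under 0.05 (66.7%, 7.02% of all genes), with the glutamate transporter Slc1a3 at -0.16 ± 0.050 (edgeR adjusted p 0.166) and Aldoc at -0.17 ± 0.055 (adjusted p 0.185). Slc1a3 ranged from 662 to 1053 CPM (median 752) in Mrpl40 +/+ and from 596 to 801 CPM (median 689.9) in Mrpl40 -/+, with 4 of 14 libraries below all others. All 13 microglia markers (median -0.091) and all 12 of endothelium and pericytes (median -0.079) lay lower, with C1qa, a chain of complement C1q, at -0.14 ± 0.063 and Vtn at -0.17 ± 0.065. At an unadjusted p under 0.05 stood only 1 of the microglia (7.69%) and 2 of the vascular markers (16.7%). Of 19 genes of interferon and antigen presentation 18 lay lower (median -0.089), 2 at that p (10.5%). By label their median was -0.12 (0 of 19 higher) in Slc25a1 +/+ and -0.0073 (9 of 19) in Slc25a1 -/+, a difference that was not tested. Oligodendrocyte markers went the other way, with 10 of 12 higher (median 0.049, a sign that turned in 2 of 13 other settings). Their median was -0.058 (1 of 12 higher) in Slc25a1 +/+ and 0.15 (12 of 12) in Slc25a1 -/+, also not tested. None of these passed by edgeR or limma-voom. DESeq2 called Slc1a3 lower, but not without its own filter.

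Most genes of transmitter release and of the response to firing lay higher. Of 30 genes of presynaptic release 25 lay higher (median 0.10), 13 of them at an unadjusted p under 0.05 (43.3%, 7.40% of all genes), with the calcium sensor Syt1 at 0.18 ± 0.055 (edgeR adjusted p 0.159) and the scaffold Pclo at 0.13 ± 0.044 (adjusted p 0.18). Syt1 ranged from 1088 to 1424 CPM (median 1257) in Mrpl40 +/+ and from 1147 to 1934 CPM (median 1403) in Mrpl40 -/+, and 6 of 14 libraries lay above all others. Of 26 immediate early genes, which neurons switch on within a short time of firing, 20 lay higher (median 0.13), with Junb at 0.22 ± 0.063 (adjusted p 0.142) and Nr4a3 at 0.38 ± 0.12 (adjusted p 0.166). In cortex the median of that list was -0.11, with 5 of 26 higher. Of 18 heat shock genes 15 lay higher (median 0.072), led by Hsp90ab1 and Hsph1 at 0.11 ± 0.035 and 0.16 ± 0.053. The heat shock median was 0.022 without the 3 animals with foreign markers. By label it was 0.0054 (10 of 18 higher) in Slc25a1 +/+ and 0.16 (16 of 18) in Slc25a1 -/+, a difference that was not tested. None of these passed by edgeR or limma-voom. DESeq2 called 3 presynaptic, 3 heat shock and 1 immediate early gene higher, and none of them without its own filter. Over all genes it called 330 of 4136 with that filter.

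Some markers of tissue outside the hippocampus lay apart between the labels, though none passed. Of 10 tested choroid plexus and ependymal markers 9 lay higher (median 0.28), with a summed level of 30.0 to 52.7 CPM in Mrpl40 +/+ and 33.3 to 108 CPM in Mrpl40 -/+. Ttr, the transthyretin of choroid plexus, was at 1.4 ± 0.56. Of 7 cerebellar granule markers 6 lay lower (median -0.37), with Cbln3 at -3.29 ± 1.03. The cerebellar median was -0.0032 without the 3 animals with foreign markers and -0.012 without the 6 animals in doubt, and the choroid plexus median 0.12 without the 3. Of 11 neocortical layer markers 8 lay lower (median -0.10, and -0.063 without the 6 animals). Of 9 thalamic markers 5 lay higher (median 0.00064, a sign that turned in 1 setting), and of 8 striatal markers 3 (median -0.052). No member of these 5 lists passed by edgeR, limma-voom or DESeq2, and their part in the calls was not tested beyond the fits without those animals.

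**Figure D5:**
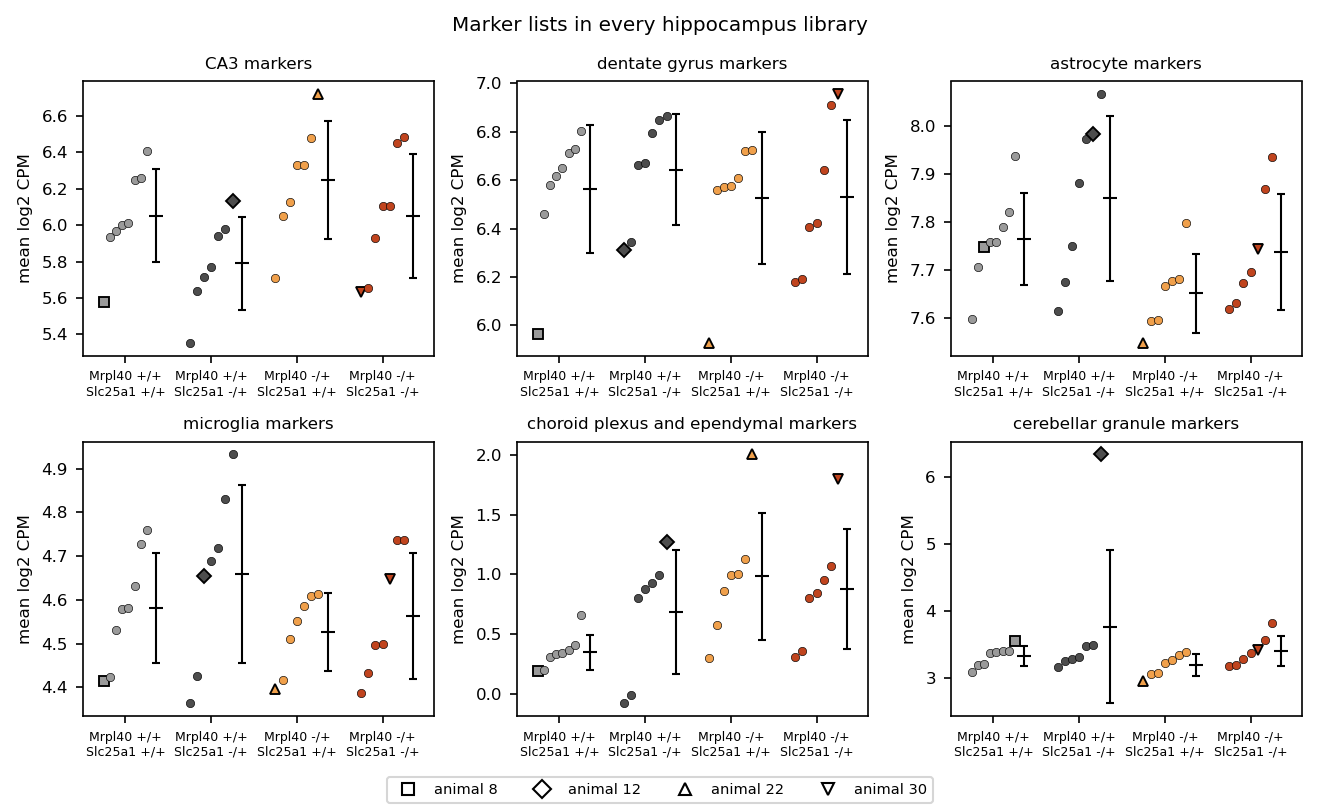
Mean log2 CPM of 6 marker lists in each of the 29 hippocampus libraries, by labelled genotype, with points for libraries, bars for the mean and SD of 7 or 8 libraries, and special symbols for the 4 animals that stand apart. CA3 and dentate markers spread widely within each genotype, and the highest cerebellar value is that of animal 12 and the highest choroid plexus values those of animals 22 and 30.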

How the data were processed

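Poly(A) RNA of hippocampus and cortex from 30 male mice (29 with both tissues) was sequenced in 59 libraries. The deposited table holds whole-number counts per gene made by the authors, with 57180 gene rows. The submitters' processing notes name FastQC, HISAT2, featureCounts and DESeq2 and the builds mm39 and GRCm39. Their versions, their settings and the annotation counted were not given in the sources used here. No column of another series was present.

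Counts were fitted with edgeR 4.0.16 in R 4.3.3 (TMM scaling, expression filter, quasi-likelihood test) with both labelled genotypes as terms. P-values were adjusted over all genes tested by Benjamini-Hochberg, with a threshold of 0.05. The effects by Slc25a1 label and the interaction came from a fit of the 4 genotypes, and the tissue difference from 58 libraries with the animal as a block. Lists are described by counts and medians only. The script was tested on simulated data.

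Genes named by rule were Mrpl40, Slc25a1, the 8 smallest p, the called genes with the 8 largest rises and 8 largest falls that are not predicted genes, the 5 smallest p of the interaction and of the tissue difference, and the 2 smallest p of each of 45 lists. A gene that the rule selects is not reported here. Other genes named were chosen after their values were seen. The comparison and the lists were chosen with earlier results of these data known.

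Alternatives were DESeq2 1.42.0, limma-voom (limma 3.58.1), 2 surrogate variables (sva 3.50.0), other scalings, filters and covariates, a replicate block and leaving out each library. Copies were found with blastn 2.17.0 in GENCODE vM21 (GRCm38), whose coordinates and sequences are printed.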

Additional observations from a re-analysis of the deposited data

Results flagged for a closer look

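In 13 of 152 sets of 7 or 8 libraries of 1 genotype, 1 library stood apart from the others, where chance gives about 1 in 20. Among called genes, Hipk2 was 23.5 CPM in Mrpl40 -/+ Slc25a1 -/+ replicate 2 (nearest library 18.4), Gm10222 was 334 CPM in Mrpl40 -/+ Slc25a1 +/+ replicate 4 (nearest 294) and C230057M02Rik was 36.1 CPM in Mrpl40 +/+ Slc25a1 -/+ replicate 1 (nearest 27.9).

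The other values that stood apart were the mean log2 CPM of marker lists. Wild-type replicate 8 stood apart in dentate gyrus markers (5.96, nearest 6.46), thalamic markers (4.24, nearest 3.89), striatal markers (3.20, nearest 2.80) and neocortical layer markers (4.67, nearest 4.20), and wild-type replicate 3 in CA2 markers (4.06, nearest 3.79). Mrpl40 -/+ Slc25a1 +/+ replicate 5, which is animal 22, stood apart in dentate gyrus markers (5.93, nearest 6.56) and oligodendrocyte markers (6.84, nearest 6.35). Replicate 6 of that genotype stood apart in genes of interferon and antigen presentation (2.77, nearest 2.62) and in endothelial and pericyte markers (5.07, nearest 4.84). Mrpl40 +/+ Slc25a1 -/+ replicate 3, which is animal 12, stood apart in cerebellar granule markers (6.34, nearest 3.50).

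The Mrpl40 effect differed between hippocampus and cortex in 13 genes by edgeR's test of the difference (hippocampus minus cortex, log2). Beside Pcsk1n (0.53) and Cck (0.42) they were Scand1 at 1.29, ENSMUSG00000121914 at 0.91, Zfp771 at 0.58, 1110065P20Rik at 0.49, Ccdc85b at 0.40, H2afj at 0.33, Ssbp4 at 0.26, ENSMUSG00000121607 at 0.25, Nop10 at 0.23, Npdc1 at 0.20 and B4galnt1 at 0.19.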

How the results depend on the processing

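The 18 calls of the main effect became 330 with DESeq2 (289 higher, 41 lower), whose filter left 4136 genes with an adjusted p, and 137 without that filter, with all 18 among them. They became 0 for a fold of at least 1.2, 10 without the Slc25a1 covariate, 9 with the Slc25a1 level as covariate, 39 with 2 surrogate variables (20 higher, 19 lower) and 45 with the replicate block (28 higher, 17 lower), which kept 17 of the 18. Among alternatives chosen after seeing the data they became 3 without the 6 animals in doubt, 9 without the 3 with foreign markers and 44 with offsets for length and GC content (19 higher, 25 lower). Leaving out 1 library gave 12 to 126 calls, with 126 without Mrpl40 -/+ Slc25a1 +/+ replicate 6, 31 and 28 without its replicates 4 and 7, 55 and 32 without Mrpl40 -/+ Slc25a1 -/+ replicates 2 and 6, and 39 without Mrpl40 +/+ Slc25a1 -/+ replicate 1. In cortex the 14 calls became 146 with DESeq2, 0 for a fold of at least 1.2, 24 with the Slc25a1 level and 8 without the 6 animals. The 13 tissue differences became 42 with DESeq2, 0 for a fold of at least 1.2, 0 without the animal block, 0 without the 6 animals, 0 without the 3 animals and 5 without animal 8. The 1 call in Slc25a1 +/+ became 2 with DESeq2 size factors, 2 with no filter, 13 with DESeq2, 6 with only the 2 groups compared, and 0 for the fold, with the replicate block and without the 6 animals. The 0 calls in Slc25a1 -/+ became 14 with DESeq2 and 1 with the replicate block, and the 0 of the interaction 4 with that block. The causes were not tested.

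No called gene changed direction in any fit. With 1 library left out, C230057M02Rik stayed called in 20 of 29 fits, Gm12988 in 17 and Soga1 in 14. Gm13341 stayed called in 12, Igf2r and Copg2 in 11 each, and the other called genes in all 29. Slc25a1 turned to -0.0018 without the 6 animals, Ugt8a to -0.012 without the 3, Patl1 to -0.0018 with the block and ENSMUSG00000117710 to 0.00047 with the mean of both simple effects. Leaving out 1 library gave -0.0039 to 0.028 for Patl1 and -0.075 to 0.045 for ENSMUSG00000117710. Replicate numbers did not pair the libraries: deviations of same-numbered libraries had a median correlation of 0.0531 (-0.455 to 0.527, 39 pairs), and 3 of 27 libraries correlated best with their own number.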
